A study of Drosophila melanogaster with 3 samples.

Results

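The regions described here are sites of B-H1-eGFP signal whose strongest point, the summit, lay 1 to 1000 bp downstream of the nearest annotated transcript start site (TSS). They were chosen by position alone. Peaks of 3 replicates were merged where they overlapped, merged regions with a peak in at least 2 replicates were kept, and each summit was placed against the nearest TSS of any gene other than a transposable element. Of 2084 such regions, 268 (12.9%) had a downstream summit, 978 had a summit up to 1000 bp upstream and 838 lay farther away, called distal below. Of the downstream summits, 89 lay in the 5′ UTR and 131 in the first intron of a transcript starting at that TSS. A further 30 lay in an exon of a non-coding transcript, 10 past the end of a short transcript, 7 in a later intron and 1 in coding sequence.

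The study used chromatin immunoprecipitation followed by sequencing (ChIP-seq) on whole Drosophila melanogaster embryos, 8 to 24 h old by their source label. The embryos were transgenic, of the strain B-H1-GFP with an insertion targeting B-H1, and expressed a fusion of B-H1 to enhanced green fluorescent protein (eGFP). The description names an antibody against GFP, whereas the antibody label says B-H1, and a separate age label gives a single value that disagrees with the source label. The description and the source label were followed. All 3 biological replicates belong to 1 group, B-H1-eGFP, and no other genotype or treatment was compared, so no group contrast exists. The values below describe where the precipitated signal lay, which is that of the fusion if the antibody was the one described. Whole embryos mix many cell types, and the labels do not say in which cells the fusion was present.

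B-H1 belongs to the Bar class of homeodomain transcription factors and, with its neighbour B-H2, is known for its roles in sensory organs, eye, leg and central nervous system. Homeodomains of this kind bind short AT-rich DNA words around a TAAT core. The stretch just downstream of a TSS can hold core promoter elements, the untranslated leader and, once the first exon ends, intronic sequence in which enhancers and alternative promoters are common. Many fly promoters carry short fixed words, among them the DNA replication-related element (DRE), bound by DREF, and the Ohler motif 1 of ribosomal and other housekeeping promoters.

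The sequences below show DNA words found near some of these summits. Each has 30 bases, read from Release 6 of the genome (the dm6 assembly), 5′ to 3′ on the strand given. The capitals in the first group mark ACAGTGGG, an 8-base extension of a 6-base word that was more frequent at the summits than beside them, and it was chosen after the values had been seen. The first 3 come from the 200 bp around summits in the 5′ UTR and the next 4 from the 200 bp around summits in the first intron. In CG31635 and Dok the word extends past or lies just outside the edge of the merged region.
ph-p (chrX:2137817-2137846, + strand): gaaccaagagtACAGTGGGtcaatttttta
sqh (chrX:6224483-6224512, - strand): gagtcgtactcACAGTGGGcgcccgataag
Raf (chrX:2296151-2296180, + strand): cagcggagagcACAGTGGGataaattggca
CG31635 (chr2L:6647100-6647129, + strand): gtttcgaacgcACAGTGGGcccagccacag
Ptp4E (chrX:4940030-4940059, - strand): tcactacaagtACAGTGGGccctccctgct
Dok (chrX:7325113-7325142, - strand): ctgaaactccaACAGTGGGggtaaagttat
SREBP (chr3L:19794367-19794396, + strand): gtgtgcagtgcACAGTGGGccaaaagcgaa

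In the second group, all at 5′ UTR regions, the capitals mark GGTCACACT, the core of the Ohler motif 1, and then TATCGATA, the DRE. They are shown because these promoter words lay close to the TSS in regions of ribosomal protein and other genes. Both were rare: GGTCACACT was found at 5 downstream summits and TATCGATA at 3.
RpL7 (chr2L:10200978-10201007, - strand): tcggccaaacGGTCACACTggccgcggagt
RpL27A (chr2L:4458329-4458358, - strand): gccgccgggcGGTCACACTgctacaaccgc
RpS15Aa (chrX:13337695-13337724, + strand): ctcaacgtgccTATCGATAgttagccggac
Sur-8 (chr3R:17401472-17401501, + strand): tttcattcgacTATCGATAgtcaattcaat

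Downstream summits fell into a near and a far group. Within 150 bp of the TSS lay 91 summits, only 23 lay at 151 to 350 bp, and 154 lay beyond 350 bp. The near group was mostly 5′ UTR and the far group mostly first intron: 73 of 89 5′ UTR summits lay within 150 bp, against 10 of 131 first-intron summits, of which 112 lay beyond 350 bp. The median distance was 65 bp for the 5′ UTR (quartiles 19 and 118 bp, range 1 to 796 bp) and 603 bp for the first intron (quartiles 441 and 808.5 bp, range 78 to 1000 bp). On the other side of the TSS the fullest 50-bp bin was 101 to 150 bp upstream, with 228 regions.

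**Figure D1:**
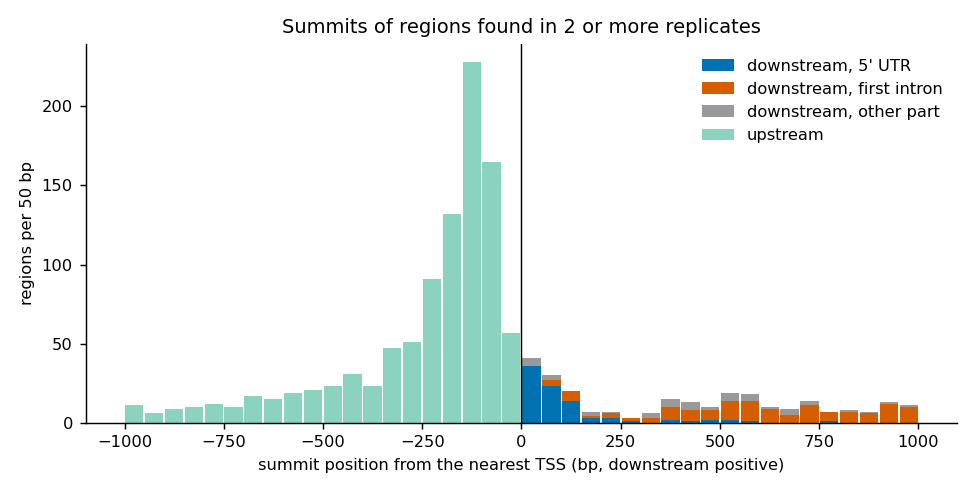
Number of regions per 50 bp (vertical axis) by the distance of the summit from the nearest TSS in bp (horizontal axis, downstream positive). Bars downstream are stacked by the part of the transcript; the 91 summits within 150 bp are mostly 5′ UTR, and the 154 beyond 350 bp are mostly first intron.

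The signal of a peak was expressed as its percentile, the rank within its own replicate's list, with 100 for the highest. The 11 members at 951 to 1000 bp had a median signal percentile of 56.7, and the 9 regions just past the limit, at 1006 to 1050 bp, had 69.0. At the TSS itself, the 41 members within 50 bp downstream had a median percentile of 59.8, and the 57 regions within 50 bp upstream had 52.2.

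Summit positions of a region lay close together in the replicates. The median distance between the outermost summits of the replicates was 26 bp (quartiles 11 and 49 bp, largest 244 bp). In 241 of 268 regions (89.9%) every replicate's summit was downstream by itself. For first introns this held in 125 of 131 regions, the other 6 having a replicate's summit past 1000 bp. For the 5′ UTR it held in 69 of 89, and in the other 20 at least 1 replicate put the summit at or upstream of the TSS. A 5′ UTR summit a few bp from the TSS is therefore not resolved from one just upstream.

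Taken list by list, the share of downstream summits differed between replicates. Replicate 1 had 244 of 1971 peaks downstream (12.4%), replicate 2 had 717 of 3609 (19.9%) and replicate 3 had 281 of 2199 (12.8%), a mean of 15.0% ± 4.21 (SD, n = 3). Summits in the 5′ UTR made up 4.16%, 9.75% and 4.46% of the lists of replicates 1, 2 and 3. The first-intron share was 6.04%, 6.82% and 5.91% in the same order, 6.26% ± 0.490 (SD, n = 3). Replicate 2 thus stood apart in its 5′ UTR share and much less in its first-intron share. Regions found in replicate 2 alone, which are not members, included 430 downstream ones, 254 of them in a 5′ UTR. Replicates 1 and 3 had 19 and 25 downstream regions of their own, with 7 and 10 in a 5′ UTR.

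All 3 replicates contributed to the members, replicate 2 the most. Replicate 1 had a peak in 220 of them, replicate 2 in 256 and replicate 3 in 242. All 3 replicates had a peak in 182 (67.9%), 26 were found only in replicates 1 and 2, 12 only in replicates 1 and 3, and 48 only in replicates 2 and 3. Upstream regions were found in all 3 replicates in 683 of 978 cases (69.8%), a difference within counting error (two-sided Fisher's exact test, p = 0.550 before and after adjustment). The 5′ UTR share was 63 of 89 (70.8%) and the first-intron share 85 of 131 (64.9%), which also did not pass (two-sided Fisher's exact test, p = 0.383 and 0.550 after adjustment). These tests count regions, which are not replicates. In all, 258 of the 268 regions overlapped the conservative list, which was derived from the alignments of all 3 replicates per the authors' accompanying descriptions.

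Where a member lacked a peak in 1 replicate, that replicate usually had one below the threshold. Of the 86 members found in 2 replicates, 72 overlapped a peak of the missing replicate's longer ranked list. These peaks had a median percentile of 96.5 in that ranked list, with a −log10 irreproducible discovery rate (IDR) of 1 or more in 36 of them and of 2, the threshold, in 0.

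The signal of the downstream regions ranked near that of upstream regions and above that of distal ones. Downstream regions had median percentiles of 57.3, 74.3 and 59.4 in replicates 1, 2 and 3. Upstream regions had 64.2, 74.0 and 63.7 in the same order, so downstream regions were lower in 2 of 3 replicates, by a mean of -3.63 points ± 3.63 (SD, n = 3, p = 0.5, exact sign-flip permutation test, two-sided). Distal regions had 46.7, 66.6 and 48.9, and downstream regions were higher in 3 of 3 replicates, by 9.58 points ± 1.69 (SD, n = 3, p = 0.25, exact sign-flip permutation test, two-sided). With 3 replicates 0.25 is the smallest p this test can give, so no difference could pass.

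The ranks of 5′ UTR and first-intron regions differed by less than the spread between replicates. The median percentile of 5′ UTR regions was 58.3, 73.0 and 61.6 in replicates 1, 2 and 3, and that of first-intron regions was 54.8, 75.5 and 57.9. The 5′ UTR was higher in 2 of 3 replicates, by a mean of 1.54 points ± 3.52 (SD, n = 3, p = 0.5, exact sign-flip permutation test, two-sided). Without replicate 1 the mean difference changed sign, to -1.59 points, and without replicate 2 it was 8.96 points.

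**Figure D2:**
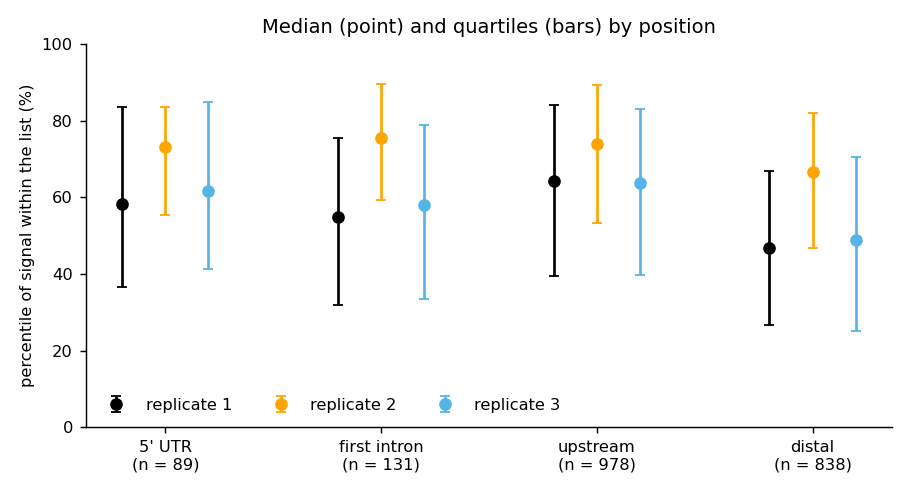
Percentile of signal within each replicate's list (vertical axis, %) for regions with a summit in the 5′ UTR, in the first intron, upstream and distal. Points are medians over the regions with a peak in that replicate and bars are quartiles; the distal medians, 46.7 to 66.6, are below those of the other classes in each replicate.

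The strongest 5′ UTR regions ranked at the top of all 3 lists. The region of Chro (FBgn0044324), which codes for a chromodomain protein of polytene interbands and the spindle matrix, spanned chr3L:22878758-22879047, with its summit 87 bp downstream and percentiles of 99.4, 99.5 and 99.6 in replicates 1, 2 and 3. The region of mRpL23 (FBgn0035335), a protein of the mitochondrial large ribosomal subunit, was at chr3L:2373490-2373744, 47 bp downstream, with 99.2, 99.1 and 99.0. GstE13, a glutathione S-transferase, had 99.0, 99.1 and 98.6, with the summit at 77 bp. All 3 lay within the top 2% of every list, and their replicates differed by less than 1 point. Elp5, a subunit of the tRNA-modifying Elongator complex, had 98.3, 99.2 and 98.4, with the summit at 59 bp.

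The other 8 of the 12 highest 5′ UTR regions belonged to tank, CG8360, CG9147, ph-p, CG9399, Ufsp1, CG8892 and E(z). Of these, ph-p and E(z) code for Polycomb group proteins. The region of ph-p, a subunit of Polycomb repressive complex 1, had percentiles of 97.8, 96.2 and 97.2, with the summit 485 bp downstream. The region of E(z), the histone H3 lysine methyltransferase of Polycomb repressive complex 2, had 91.3, 88.3 and 90.4, with the summit at 52 bp. Across the 12 regions the replicate values ran from 85.2 to 99.6, each was found in 3 replicates, and 11 had their summit within 150 bp. The exception was ph-p.

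The strongest first-intron region was that of Adf1 (FBgn0284249), which codes for a MADF-domain transcription factor first described at the Adh distal promoter. It spanned chr2R:6662923-6663209, with its summit 765 bp downstream and percentiles of 99.6, 98.9 and 99.7 in replicates 1, 2 and 3. CG8320 followed with 99.3, 99.2 and 99.2 and a summit at 83 bp, in a first intron of 138 bp. Both regions stayed above 98 in every list.

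The first-intron region of mub, which codes for a KH-domain RNA-binding protein, had percentiles of 94.7, 96.7 and 97.0, with the summit at 916 bp of an intron of 27404 bp. That of Dhc64C, the heavy chain of cytoplasmic dynein, had 90.6, 95.4 and 92.4, with the summit at 691 bp. That of Cyt-c-p, cytochrome c, had 90.5, 96.1 and 87.8, with the summit at 934 bp. A further 6 of the 12 highest belonged to CG9663, Trmt6, LPCAT, CG31635, CG31612 and lncRNA:CR44209. Across the 12, replicate values ran from 87.8 to 99.7, and each was found in 3 replicates. Of these 12, 9 had their summit beyond 350 bp, against 1 of the 12 highest 5′ UTR regions. The whole classes differed in the same way, with 112 of 131 first-intron and 9 of 89 5′ UTR summits beyond 350 bp.

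**Figure D3:**
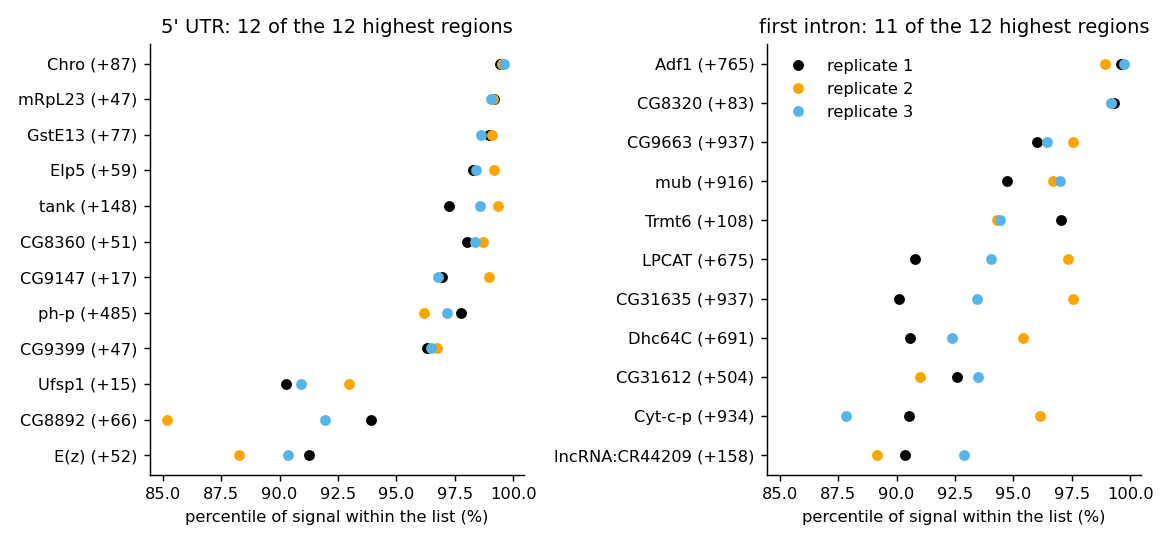
Percentile of signal within each list (horizontal axis, %) for the 12 highest 5′ UTR regions and 11 of the 12 highest first-intron regions, 1 point per replicate, with the summit's distance from the TSS in bp after the gene symbol. All values lie between 85.2 and 99.7, and replicates of the leading regions nearly coincide.

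Below these leaders the classes spread over nearly the whole range. A mean percentile of 90 or more was reached by 11 5′ UTR and 14 first-intron regions. The lowest mean percentiles were 5.59 and 7.99. Median values were 59.9 for 5′ UTR regions and 57.4 for first-intron regions. The SD between replicates had a median of 8.68 points in 5′ UTR regions and 13.3 points in first-intron regions. Among regions found in 3 replicates, replicate 2 gave the highest percentile in 41 of 63 5′ UTR regions and 63 of 85 first-intron regions. In those regions it therefore also set the summit. Replicate 2 had the longest list, and a longer list can lift the percentile of a shared peak. The part of list length in this was not tested.

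Regions in neither class included several at non-coding genes. The 5 with the highest mean percentile were at asRNA:CR45928 (99.6, summit at 74 bp), lncRNA:CR46035 (98.2, 727 bp), lncRNA:CR44619 (97.8, 494 bp), lncRNA:CR44149 (95.9, 68 bp) and lncRNA:CR44409 (91.8, 527 bp). The first 4 summits were in a non-coding exon, and that of lncRNA:CR44409 lay past the end of the transcript. In all, the nearest TSS belonged to a protein-coding gene in 227 regions, a long non-coding RNA in 35, an antisense RNA in 3, another non-coding RNA in 2 and a pseudogene in 1.

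A position downstream of one TSS was often upstream of another. Another TSS of the same gene, for which the summit was upstream by at most 1000 bp, lay ahead in 61 of 89 5′ UTR regions (68.5%), against 11 of 131 first-intron regions (8.40%). A TSS of a gene on the opposite strand, for which the summit was upstream, was found within 1000 bp in 48 5′ UTR regions (53.9%), 26 first-intron regions (19.8%) and 40.9% of upstream regions. Of the 12 highest 5′ UTR regions, 9 had another TSS of their own gene ahead and 8 had one of an opposite gene. Among the 12 highest first-intron regions these counts were 1 and 5. The label downstream therefore holds for the nearest TSS, and for most 5′ UTR regions another start of the same gene was close by.

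First introns that held a summit were long. Their median length was 1790 bp (quartiles 721 and 4320 bp, n = 131), against 202 bp (quartiles 64 and 1374 bp) over the 16893 TSSs of protein-coding genes that have a first intron. A summit far from the TSS can be intronic only where the intron reaches that far, so the position rule bears on this difference. Within the intron the median summit lay 315 bp from the end of the first exon (quartiles 202 and 474 bp).

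A downstream region was assigned to 227 of 13945 protein-coding genes, which is 1.63%. A 5′ UTR region was assigned to 91 genes (0.653%) and a first-intron region to 129 (0.925%). The 3 genes with 2 regions each were CG9663, eas, an ethanolamine kinase gene, and zf30C, a zinc finger gene. Of the 227 genes, 27 also had an upstream region (11.9%), against 884 of all protein-coding genes (6.34%).

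Genes of the cytosolic ribosome supplied the largest number of listed genes. A downstream region was found at 7 of 80 (8.75%), against 1.63% of all protein-coding genes, and each of the 7 was in a 5′ UTR. An upstream region was found at 21 of the 80 (26.3%). RpL7 had the strongest of the 7, with percentiles of 66.8, 90.7 and 85.6 in replicates 1, 2 and 3 and a summit 43 bp downstream. RpS21 had 55.1, 67.8 and 65.8 (18 bp), and RpS4 had 52.9, 69.8 and 38.3 (2 bp). RpL31 had 6.95, 74.7 and 29.9 (11 bp), so its replicates covered most of the scale. RpL27A, RpS18 and RpS15Aa were found in replicates 2 and 3 only, with summits at 12, 3 and 3 bp.

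All 7 ribosomal regions had their highest percentile in replicate 2, and in 5 of the 7 at least 1 replicate put the summit at or upstream of the TSS. For RpS4 the summits of replicates 1, 2 and 3 lay at -71, 2 and -37 bp, and for RpL31 at -68, 11 and -67 bp. In those 5 regions the downstream position came from replicate 2, whose peak ranked highest and set the summit. RpL7 and RpS21 had downstream summits in every replicate. The median of the mean percentiles of the 7 was 53.7, against 58.6 over all 268 regions.

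Genes of chromatin and promoter architecture were a further group. A downstream region was found at 3 of 22 insulator and promoter architecture genes (13.6%), namely Chro, Trl and Dref, against 1.63% of all protein-coding genes. The 13.6% was the highest share of any list, and it rests on 3 genes. Of 33 Polycomb and trithorax group genes, 3 had a region (9.09%), namely ph-p, E(z) and Trl, which is in both lists. These regions were in the 5′ UTR. Trl codes for GAGA factor, and its region had percentiles of 30.7, 75.5 and 73.8, with the summit at 100 bp. Dref codes for the factor that binds the DRE, and its region was absent from replicate 1 and had 33.4 in replicate 2 and 3.91 in replicate 3, with the summit at 117 bp. Within this group Chro, ph-p and E(z) were strong in every replicate, and Trl and Dref were not.

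Regions at neuronal genes and genes of RNA processing lay in the 5′ UTR, the first intron and a later intron. Of 25 neuronal RNA-binding, synapse and adhesion genes, 3 had a downstream region (12%), against 1.63% of all protein-coding genes. Nrx-1, the synaptic adhesion protein neurexin, had percentiles of 60.9, 74.3 and 65.5, with the summit in the 5′ UTR at 73 bp. In the first intron, dlg1, a synaptic and septate junction scaffold, had 29.7, 79.5 and 69.9, with the summit at 448 bp. The pan-neuronal RNA-binding gene elav had no peak in replicate 1 and 76.2 and 30.1 in replicates 2 and 3, with the summit at 580 bp. Of 31 splicing and RNA processing genes, 3 had a region (9.68%): mub, ps and Sxl. Of these ps, a splicing regulator of the Nova family, had 89.4 and 77.4 in replicates 2 and 3, and Sxl, the splicing regulator of sex determination, had 53.5 and 8.19 in the same replicates, in a later intron.

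In the remaining lists, 2 genes or fewer had a downstream region. Oxidative phosphorylation had 2 of 38 genes (5.26%), Cyt-c-p and ND-24, a subunit of complex I with percentiles of 75.6, 73.8 and 72.5. Translation factors had 2 of 36 (5.56%), eIF3h and pAbp, the poly(A)-binding protein. Glycolysis had 1 of 12 (8.33%), Pgi, with 22.9 and 34.9 in replicates 1 and 2. DNA replication and cell cycle had 1 of 37 (2.70%), Dp, the partner of E2F factors. These shares were above the 1.63% of all protein-coding genes, but each rests on 1 or 2 genes. No downstream region was found at the 2 genes of the Bar locus, B-H1 and B-H2, or at 67 other homeobox genes. The lists for sensory organs and Notch (26 genes), axon guidance (26), muscle (25), segmentation and signalling (34), the proteasome (32) and chemoreceptors (27) also had 0. With a region at 1.63% of all genes, a count of 0 in lists of these sizes is close to the background. No list was tested, since the lists were chosen with earlier results known.

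**Figure D4:**
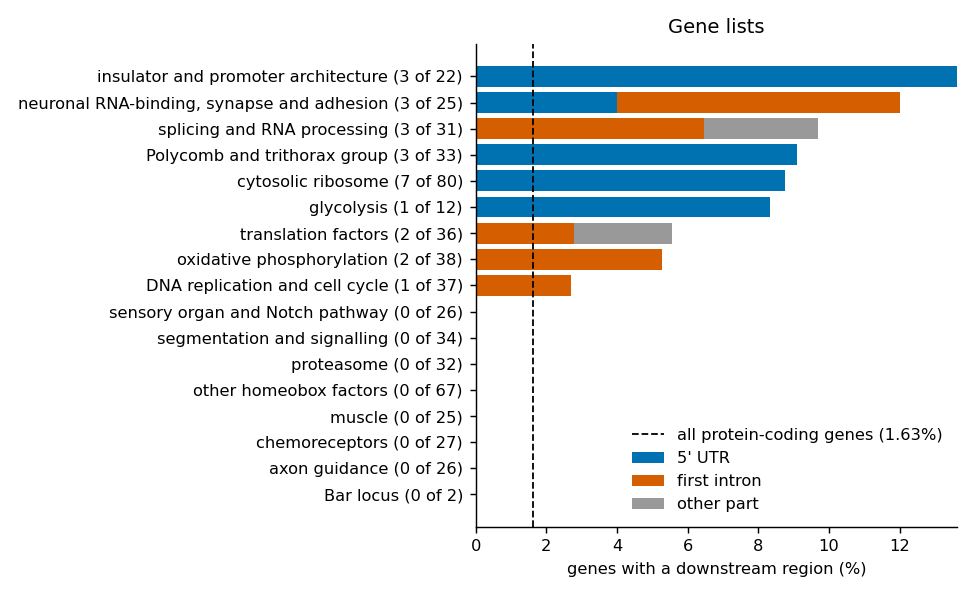
Share of the protein-coding genes of each list that had a downstream region (horizontal axis, %), split by the part of the transcript, with the counts after the list's name. The dashed line is the share over all protein-coding genes, 1.63%; the 7 cytosolic ribosome genes were all 5′ UTR, and 8 lists had 0.

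The DNA at the summits was richer in A and T than the DNA farther downstream. The 200 bp centred on the summit had a GC content of 36.1% ± 7.27 (SD over 268 regions), and the 200 bp centred 500 bp farther downstream, the flank, had 45.5% ± 9.60. The summit was lower in 209 of 268 regions. The 5′ UTR regions had 38.3% at the summit and 49.0% at the flank, and the first-intron regions had 34.7% and 43.5%. Flanks were centred in coding sequence in 69 regions. Upstream regions had 33.8% at the summit and distal regions 34.6%.

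Short words were compared as presence on either strand of the 200 bp, for all 2080 distinct 6-base words (6-mers). Between summit and flank, 109 6-mers (5.24%) were more frequent at the summit and 131 (6.3%) were less frequent at an adjusted p below 0.05 (exact McNemar test per 6-mer, Benjamini-Hochberg over all 6-mers). The direction followed base composition. Of the 109, 91 had at most 1 G or C, and the median ratio of summit share to flank share fell from 1.97 for 6-mers with 0 G or C to 0.493 for those with 5. Ratios were computed with 0.5 added to both counts. Of the 8 called 6-mers with the lowest ratio, CGAGGA was in 2 summits and 29 flanks and CGCCGA in 4 and 39. ACGAGG was in 0 summits and 11 flanks, CCCGGA in 1 and 12, CGGGAG in 2 and 19, CGGATC in 2 and 19, CGGCTC in 2 and 18, and CGTCGC in 4 and 32.

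**Figure D5:**
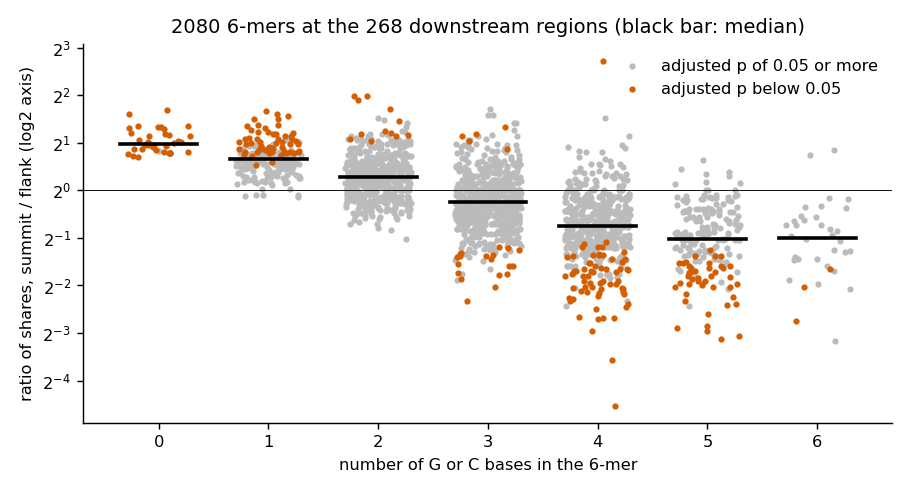
Ratio of the share of summits to the share of flanks that hold a 6-mer (vertical axis, log2 scale) by its number of G or C bases (horizontal axis), for 2080 6-mers, with those past an adjusted p of 0.05 in orange and black bars at the medians. The median runs from 1.97 at 0 G or C bases to 0.502 at 6, and 1 called 6-mer with 4 G or C bases stands above 1.

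Only 18 of the 109 6-mers that were more frequent at summits had 2 or more G or C. GTGCAC, a palindrome with 4, had the highest ratio: it was in 29 of 268 summits (10.8%) and 4 flanks (1.49%), 6.56 times as often (adjusted p = 3.02e-04, exact McNemar test), whereas the median ratio of 6-mers with 4 G or C was 0.596. ACTGTA was in 50 summits (18.7%) and 13 flanks (4.85%), a ratio of 3.74 (adjusted p = 1.36e-04, exact McNemar test). ACAGTG was in 65 summits (24.3%) and 29 flanks (10.8%), a ratio of 2.22 (adjusted p = 0.00215, exact McNemar test). Of the 18, 4 held the shared letters ACTGT on a strand, among them AACTGT (43 summits and 20 flanks) and ACTGTG (50 and 24). Of all 2080 6-mers, 8 hold these letters, which were not preset. Such words overlap, so 1 site can hold more than 1 of them. The other called 6-mers of the highest ratios were ACACTA (33 summits and 8 flanks), CATATC (29 and 7), ACGTAT (24 and 7), ATATTA (94 and 29), TCTAAA (52 and 16) and AATTCT (53 and 17).

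These calls changed with the flank, the window and the number of regions. Where only the 66 regions whose flank lay within 5 percentage points of GC content of the summit were kept, a choice made after seeing the data, 0 6-mers were called and 45 had an unadjusted p below 0.05 (exact McNemar test). There GTGCAC was in 6 summits and 0 flanks, ACAGTG in 15 and 9, and ACTGTA in 12 and 9. With only 66 pairs the test cannot tell a loss of the difference from a loss of pairs. With the flank 500 bp on the TSS side instead, ACAGTG was in 24 flanks and ACTGTA in 22, and both stayed past the threshold, while GTGCAC was in 15 flanks and did not (adjusted p = 0.238, exact McNemar test). In 100 bp centred on the summit, ACAGTG was in 20 summits and 14 flanks and none of these 3 passed. Within the 200 bp, the copy of ACAGTG closest to the summit lay a median of 62 bp away. It was within 50 bp in 23 of the 65 regions, so the word was not concentrated at the summit point itself.

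The word ACAGTG was not particular to the downstream side. It was in 19.6% of upstream and 26.1% of distal summits, against 24.3% downstream (p = 0.105, adjusted p = 0.799 against upstream, Fisher's exact test), 22.5% of 5′ UTR and 24.4% of first-intron summits. For comparison, windows of the same 200 bp placed at all 19253 TSSs of protein-coding genes held it in 8.82% at 65 bp downstream and 8.26% at 603 bp downstream, the median positions of the 5′ UTR and first-intron summits. In each replicate's own downstream summits it was in 20.5%, 17.7% and 22.8%, a mean of 20.3% ± 2.54 (SD, n = 3). Regions found in replicate 2 alone had it in 13.7% of 430 downstream summits, at a GC content of 44.3%.

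The longer word ACAGTGGG, which contains ACAGTG, was in 20 of the 268 summits (7.46%), 6 of them in the 5′ UTR and 9 in the first intron. It was in 4.50% of upstream summits, 4.77% of distal summits and 2 of 268 flanks (0.746%). The windows at all protein-coding TSSs held it in 0.384% at 65 bp and 0.628% at 603 bp. It lay 22 to 96 bp from the summit, with a median of 56.5 bp, and within 50 bp in 7 of the 20. The word was on the strand of the gene in 12 regions and on the other strand in 8. The 20 regions included those of ph-p, CG31635, Ptp4E, a receptor tyrosine phosphatase, and Dok, an adaptor of tyrosine kinases. Others were sqh, the regulatory light chain of non-muscle myosin, Raf, the kinase of the MAPK cascade, and SREBP, a regulator of lipid synthesis. Their median mean percentile was 61.0, against 58.6 over all 268 regions, and 12 of the 20 were found in 3 replicates.

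Of the 20 regions with ACAGTGGG, 10 were on the X chromosome, which held 52 of the 268 regions. Over all 2084 regions the word was in 9.29% of those on X and in 2.86% to 5.21% of those on the 4 large autosomal arms. In windows placed 603 bp downstream of protein-coding TSSs it was in 0.977% on X and in 0.484% to 0.685% on those arms. The word and this count were both looked at after the values were seen and were not tested.

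No 6-mer told downstream from upstream regions. Of 2080, 0 were higher (0%) and 0 were lower (0%) at an adjusted p below 0.05 by Fisher's exact test, 144 had an unadjusted p below 0.05, and a logistic model with GC content called 0. The smallest p were those of CAAAGA, in 19.4% of downstream and 10.3% of upstream summits, CTCACA, in 12.7% and 5.73%, and GATTGC, in 11.2% and 4.81%, all 3 at an adjusted p of 0.154 by Fisher's exact test. TATCGA, the core of the DRE, was in 8.21% of downstream and 15.4% of upstream summits (p = 0.00192, adjusted p = 0.265, Fisher's exact test).

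Between the 5′ UTR and the first intron, likewise 0 6-mers were higher (0%) and 0 lower (0%), with 108 at an unadjusted p below 0.05 and 0 called by the logistic model with GC content. The smallest p were those of AT-rich words more common in introns. AATATT was in 15.7% of 5′ UTR and 38.9% of first-intron summits, AGATAT in 4.49% and 21.4%, and AAGATA in 4.49% and 20.6%, all 3 at an adjusted p of 0.332 by Fisher's exact test. GAGAGA, the word bound by GAGA factor, was in 1 of 89 5′ UTR summits (1.12%) and 14 of 131 first-intron summits (10.7%), which missed the threshold after adjustment (p = 0.00524, adjusted p = 0.681, Fisher's exact test).

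The preset homeodomain words were not called at these summits. TAATTG, a site of Bar-class homeodomains, was in 43 of 268 summits and 28 flanks, with an adjusted p of 0.257 (exact McNemar test). TAATTA, the generic homeodomain core, was in 36 summits and 20 flanks (adjusted p = 0.161, exact McNemar test), and TAAACG, a further site of the Bar class, in 23 and 19. A word that was not preset, ATATTA, holds the TAAT core on its other strand and was called. It was in 94 summits and 29 flanks (adjusted p = 2.6e-08, exact McNemar test). ATATTA has 0 G or C, and 35 of the 36 such 6-mers were called. In upstream summits TAATTG was in 20.4% and in distal summits in 19.1%. The windows at all protein-coding TSSs held TAATTG in 14.4% at 65 bp and 13.3% at 603 bp. Its share at the downstream summits was thus between that of the TSS windows and that of the other regions. TAATTA had the same order, with 13.4% downstream, 18.8% upstream and 19.2% distal, against 8.19% and 8.60% of the TSS windows. TAATTG was in 12.4% of 5′ UTR and 19.1% of first-intron summits, which did not pass (adjusted p = 0.983, Fisher's exact test).

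Of the other preset words, TATAAA, the TATA box core, was called at the summits. It was in 88 summits (32.8%) and 45 flanks (16.8%), with an adjusted p of 0.00111 (exact McNemar test). Yet among the 66 regions with a flank of like GC content it was in 13 summits and 17 flanks. TATAAA is also 1 of the 36 6-mers with 0 G or C, of which 35 were called. Its ratio of 1.95 was near their median of 1.97, so the call does not set it apart from other AT-only words. TATCGA was in 22 summits and 10 flanks (adjusted p = 0.180, exact McNemar test). CACACT, contained in the Ohler motif 1, was in 20 of 89 5′ UTR and 18 of 131 first-intron summits. The initiator words TCAGTT and TCAGTC, the downstream promoter element word CGGACG, the MTE word CGAACG, the Zelda word CAGGTA, the E boxes CACGTG and CAGCTG, and the AP-1 word TGACTC were not called in any of the 3 comparisons.

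The longer promoter words were rare. GGTCACACT was in 5 of 268 summits, at RpL7, tty, RpL27A and CG4098 in the 5′ UTR and at CG32448 in the first intron, that is 4.49% of 5′ UTR summits. Windows at all protein-coding TSSs held it in 3.52% at 65 bp and 0.119% at 603 bp. TATCGATA was in 3 summits (1.12%), 2 of them in the 5′ UTR (2.25%) and 0 in the first intron, against 5.01% of upstream summits. The TSS windows held it in 3.63% at 65 bp and 0.358% at 603 bp. At RpS15Aa and Sur-8, printed above, it lay 72 and 33 bp upstream of the TSS, within the 200 bp of summits 3 and 29 bp downstream.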

How the data were processed

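Peaks were analysed on the 6 arms 2L, 2R, 3L, 3R, 4 and X in dm6 coordinates, per the labels. Aligner and peak caller: not given in the sources used here. Each replicate's lists derive from its own filtered alignments and 1 further file shared by the replicates, per the accompanying descriptions, so the replicates' lists share an input. Signal values are those the authors deposited, on an unstated scale, and served only for ranking within a list. Scores deposited by the authors were not used. As deposited, the ranked lists also hold a −log10 global IDR, and all 7779 thresholded peaks on the arms were found there at 2 or more, an IDR of at most 0.01. Depth: not given in the sources used here. In the lists of the whole series, 32 per-sample columns matched no replicate and were left out. The labelled control experiment was not analysed here.

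Peaks overlapping by 1 bp or more were merged into 4085 regions (1375 in 3 replicates, 709 in 2, 2001 in 1). A region's summit came from its peak of highest percentile. Genes and 23584 TSSs came from Ensembl release 115 (BDGP6). Where transcripts of a TSS differed, a 5′ UTR took precedence over a first intron. Python 3.11.15, numpy 2.4.6 and scipy 1.17.1 were used. The 6-mer tests were tested on simulated data. Of 569 entries in the gene lists, 561 matched. The members and lists were chosen with earlier results of these data known. Genes were named by the highest mean percentile: 12 per class, 5 of other parts and up to 4 per list, with further ribosomal genes and the words ACAGTGGG, GGTCACACT and TATCGATA chosen after values were seen. A region that this rule names is not reported here. Replicates are labelled as biological replicates of 1 strain.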

Additional observations from a re-analysis of the deposited data

How the results depend on the processing

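Settings varied were the replicates used, the limit, the TSSs, the summit, the overlap, the window and the flank. Of the alternatives to the counts, shares and differences that answer a comparison, 67 stayed the same, 10 moved and 2 changed direction. Tested shares had to keep their direction and their side of the threshold. Counts had to stay within 1.5 times, and untested shares and the GC difference within the spread between replicates. Differences in median percentile had only to keep their direction, so a change in their size was not counted as a move. With a limit of 500 bp, 152 regions (7.29%) were downstream, 70.4% of them were found in 3 replicates, 0.112 points above the upstream share instead of below it, and 1 6-mer, AGATAT, differed between the 5′ UTR and the first intron. With TSSs of protein-coding genes only, 1 6-mer, ATTGCG, differed between downstream and upstream regions, and in windows of 400 bp 2 did, CACAGA and CCGCCC. The 240 6-mers that differed between summit and flank became 137 to 195 with a replicate left out, lowest without replicate 2. They became 127 in regions found in all 3 replicates, 116 in windows of 100 bp, 153 with the flank on the TSS side and 0 with flanks of like GC content, where only 66 regions remained. The log2 ratio of TATCGA was -0.34 with the flank on the TSS side, and that of TATAAA was -0.37 with flanks of like GC content. The difference in median percentile between 5′ UTR and first intron ran from -1.59 (without replicate 1) to 8.96 (without replicate 2), a range wider than the SD of 3.52 between replicates. With a replicate left out, 194 to 233 regions were downstream. Of the 268 members, 84.7% stayed downstream without replicate 1, 68.3% without replicate 2 and 76.5% without replicate 3. Across settings, 56.7% to 100% of the 268 members stayed downstream. No paired analysis was possible because all samples belong to 1 group, so the replicate numbers pair no samples across groups. With unknown read depth and 3 replicates, an absent peak is not shown to be an absent site, and p-values over regions measure the spread between regions of these samples.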
